A study of Caenorhabditis elegans with 2 samples.

Results

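Among the nuclear binding sites of ARID-1 in L4 larvae of Caenorhabditis elegans, 432 of 2306 (18.7%, exact 95% interval 17.2 to 20.4) lay at the start of a single protein-coding gene. These are peaks of the conservative list made from both replicates, kept there because their rank repeated between peak sets by the irreproducible discovery rate (IDR). A peak was taken when its summit, the base of highest signal, was at most 500 bp from the 5' end of exactly 1 annotated protein-coding gene. It had to overlap no tRNA, snoRNA or snRNA gene, and its gene could have no same-strand protein-coding gene ending within 500 bp upstream. The 432 peaks belong to 420 genes, which are 2.57% of the 16358 genes that meet the rule on neighbours. Of the other nuclear peaks, 217 had at least 2 genes in the window, 213 had 1 gene with a same-strand gene ending upstream, 466 overlapped a small RNA gene and 978 lay farther from any protein-coding 5' end.

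Binding was measured by chromatin immunoprecipitation and sequencing in strain RW12194, which carries arid-1::TY1::EGFP::3xFLAG, inserted by CRISPR at the arid-1 locus. Newly hatched larvae were held without food after bleaching of their parents, and animals were collected as L4 larvae at 47 hours. The tagged protein was recovered with an antibody against GFP from sonicated chromatin of whole animals, as 2 biological replicates of 1 group, so no comparison of conditions exists and tissues cannot be told apart. Every animal carries the tag, and no untagged or input library was used here. The peak caller's signal is the measure of binding, and the number of reads behind it is unknown.

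ARID-1 is named for its AT-rich interaction domain, a DNA-binding fold, and its relatives in mammals work with SIN3 histone deacetylase complexes. Promoters in worms are short, and many worm transcripts lose their first stretch of RNA when a spliced leader is joined to them, so an annotated 5' end can lie downstream of the base where transcription starts. Worm genes can also share a promoter as an operon, in which same-strand genes follow each other closely.

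The sequences at 5 of the highest peaks show what these sites look like. Each covers 50 bp to either side of the summit and is read 5' to 3' on the strand of the gene, from the RefSeq assembly WBcel235, the sequence of ce11. The windows are rpl-3 at chrIII:3867519-3867619 (plus strand), tasp-1 at chrIII:10759194-10759294 (plus strand), rpl-35 at chrIII:7854648-7854748 (plus strand), cdc-48.1 at chrII:10563520-10563620 (minus strand) and rps-1 at chrIII:4475606-4475706 (plus strand). Capitals mark TACACT or its reverse complement AGTGTA, a word picked by eye from the sequences of the 12 highest peaks.
rpl-3: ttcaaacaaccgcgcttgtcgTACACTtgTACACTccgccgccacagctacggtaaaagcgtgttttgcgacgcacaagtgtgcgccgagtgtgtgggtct
tasp-1: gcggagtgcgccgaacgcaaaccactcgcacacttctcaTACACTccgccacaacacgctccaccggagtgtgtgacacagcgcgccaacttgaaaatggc
rpl-35: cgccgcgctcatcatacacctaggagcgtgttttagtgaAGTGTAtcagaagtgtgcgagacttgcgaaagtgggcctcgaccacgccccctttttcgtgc
cdc-48.1: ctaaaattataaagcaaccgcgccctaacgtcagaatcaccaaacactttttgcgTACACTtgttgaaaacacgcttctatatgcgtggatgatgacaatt
rps-1: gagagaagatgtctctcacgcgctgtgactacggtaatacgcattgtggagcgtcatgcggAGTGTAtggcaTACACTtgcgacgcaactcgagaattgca

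TACACT was present within 100 bp of the summit at 8 of the 12 highest peaks from which it was picked. Among the remaining 420 peaks it was present at 38 (9.05%), beside 7.87% of all genes under the rule at the same median position.

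The next 5 sequences are from high peaks with GCGTCTC or its reverse complement GAGACGC, in capitals, within 25 bp of the summit. They are shown because this word was far commoner at the summits than beside them. Their signals in the conservative list ran from 244 at hsp-3 down to 116 at myrf-1. Within 100 bp of the summit the word was at 0 of the 12 highest peaks. It was at 20 of the 108 highest and 11 of the 108 lowest. The windows are hsp-3 at chrX:6092121-6092221 (minus strand), fust-1 at chrII:7152126-7152226 (plus strand), R107.5 at chrIII:9054030-9054130 (minus strand), ntl-11 at chrIV:15471546-15471646 (minus strand) and myrf-1 at chrII:10502855-10502955 (minus strand).
hsp-3: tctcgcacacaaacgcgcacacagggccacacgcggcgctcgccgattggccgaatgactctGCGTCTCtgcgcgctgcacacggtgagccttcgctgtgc
fust-1: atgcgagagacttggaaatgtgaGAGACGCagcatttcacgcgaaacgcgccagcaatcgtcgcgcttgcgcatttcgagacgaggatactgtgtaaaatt
R107.5: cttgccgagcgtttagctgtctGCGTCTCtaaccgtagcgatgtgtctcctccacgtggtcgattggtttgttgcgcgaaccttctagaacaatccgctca
ntl-11: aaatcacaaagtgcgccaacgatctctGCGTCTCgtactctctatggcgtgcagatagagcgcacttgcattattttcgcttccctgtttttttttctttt
myrf-1: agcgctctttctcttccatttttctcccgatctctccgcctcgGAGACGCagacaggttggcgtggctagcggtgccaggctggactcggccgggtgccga

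The last pair shows a run of 29 bp, in capitals, that 2 of the 15 highest peaks share letter for letter and on the same strand relative to their genes. The windows are eel-1 at chrIV:3050424-3050524 (minus strand) and rps-24 at chrIV:385496-385596 (plus strand).
eel-1: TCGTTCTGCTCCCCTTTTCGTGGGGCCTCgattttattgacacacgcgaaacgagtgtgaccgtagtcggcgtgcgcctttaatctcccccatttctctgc
rps-24: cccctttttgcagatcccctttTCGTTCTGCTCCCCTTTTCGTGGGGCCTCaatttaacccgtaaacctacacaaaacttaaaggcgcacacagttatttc

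This run was noticed by eye in the sequences. It had 60 copies in the nuclear genome, on either strand, and lay within 100 bp of the summit at 9 single-gene promoter peaks and 7 other nuclear peaks. The 9 belong to eel-1, rps-24, atad-3, cpt-2, C26B2.7, C09E7.7 and Y62F5A.12, with 1 each, and to enu-3.3, with both of its peaks.

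Summits lay mainly upstream. Of the 432, 340 (78.7%, exact interval 74.5 to 82.5) were upstream of the annotated 5' end and 92 were downstream. The median position was -192.5 bp, with quartiles at -317.75 and -34.75 bp. The same rule applied to each replicate's own thresholded list gave 216 peaks in replicate 1 and 206 in replicate 2. Of these, 85.2% and 88.3% were upstream (mean 86.8% ± 2.24, SD, n = 2), at medians of -210.5 and -226.5 bp (mean -218 ± 11.3 bp). The upstream share in the conservative list was below both, by more than the spread between the replicates. Genes on the plus strand had 80.1% of their summits upstream and genes on the minus strand 77.4%.

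**Figure D1:**
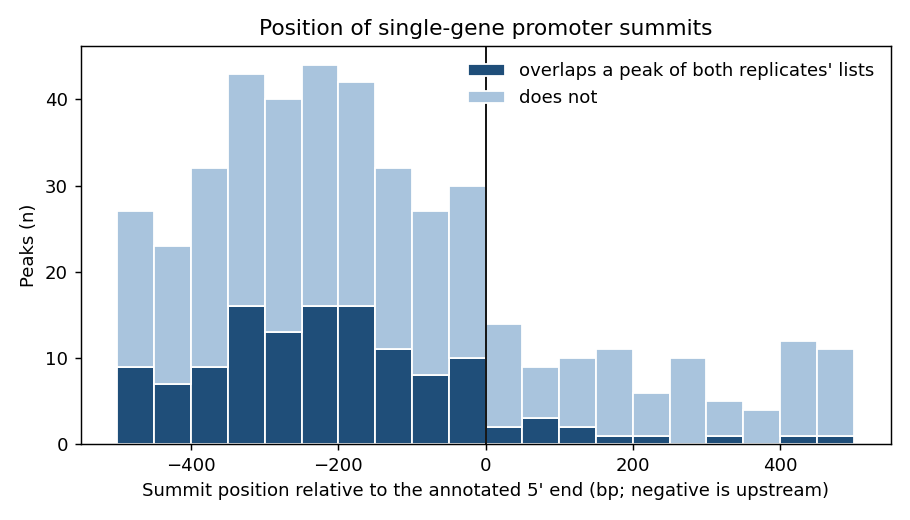
Histogram of the 432 summit positions relative to the annotated 5' end of the gene, in 50 bp bins (x axis, bp, negative upstream) against the number of peaks (y axis). Dark bars are peaks that overlap a peak of both replicates' own lists, light bars the others. The 84 summits from 300 to 200 bp upstream form the fullest 100 bp, and 92 summits lie downstream.

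Counted in steps of 100 bp, 84 summits lay 300 to 200 bp upstream, 75 lay 400 to 300 bp upstream and 74 lay 200 to 100 bp upstream. The outermost step upstream held 50 and the step next to the 5' end held 57. Downstream, the first 100 bp held 23 summits and the last 100 bp, ending at the limit, also held 23. The 213 peaks whose single gene has a same-strand gene ending upstream sat closer, at a median of -94 bp, and 66.7% of them (exact interval 59.9 to 73.0) were upstream. The 2 intervals of the upstream share do not meet, although the limit on neighbours also changes what can lie upstream of the gene.

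The 500 bp limit fell inside a continuous spread of summits. Just inside it were Y17G7B.20 at -499 bp (signal 142), vps-39 at -495 bp (129), which encodes a subunit of the HOPS tethering complex, and gmeb-1 at -494 bp (67.9). Just outside were C34D10.5 at -502 bp (60.5), Y59A8B.24 at -504 bp (130) and sms-3 at -504 bp (114).

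Of the 340 upstream summits, 312 lay between genes and 28 inside another annotated gene, 23 of these in an intron. Of the 92 downstream summits, 88 lay in their own gene, 32 in the 5' UTR, 31 in coding exons, 24 in introns and 1 in the 3' UTR. The 5 summits farthest downstream were those of his-16 (491 bp), T28F4.8 (490 bp), snr-6 (486 bp), F54F2.6 (484 bp) and B0432.10 (478 bp). his-16 encodes a core histone and snr-6 a small nuclear ribonucleoprotein of the spliceosome, and at both the summit lay in the 3' UTR of another gene, while at T28F4.8 it lay in the gene's own 3' UTR. None of the 5 overlapped a peak of both replicates' own lists.

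The signal of the 432 peaks had a median of 74.5 with quartiles of 61.9 and 102, close to the median of 76.5 for the other 1874 nuclear peaks. By class, the median of those others ran from 69.3 far from any protein-coding 5' end to 99.1 over small RNA genes. At 202 of the 432 (46.8%) the signal reached the median of all nuclear peaks, 76.0. The tail was long, and 25 of the 100 highest nuclear peaks were single-gene promoter peaks, as were the 2 highest. Nearly all peaks, 397 of 432 (91.9%), were exactly 270 bp wide, and 35 were narrower. Only 12 peaks overlapped another conservative peak, and the 4 with a signal under 20, at unc-23, B0348.10, T21B10.3 and rbr-2, were all among these 12.

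Upstream summits had a median signal of 78.9 and downstream summits one of 66.0. Placement changed step by step with signal. Among the 108 lowest peaks 64.8% were upstream, among the next 108 75.9%, then 79.6%, and among the 108 highest 94.4%. By position, the median signal was between 73.4 and 80.4 in every 100 bp step upstream and between 62.7 and 67.9 in every step downstream.

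A peak of both replicates' own lists was overlapped by at least 1 bp at 127 of the 432 (29.4%, exact interval 25.1 to 33.9), beside 33.5% of all nuclear conservative peaks. The member share was therefore near that of the whole list, which mixes classes. The share was 55.6% over small RNA genes and 38.2% with at least 2 genes in the window. It was 28.2% with a same-strand gene ending upstream and 24.9% far from any protein-coding 5' end. Among the 432, replicate 1 alone had a peak at 65, replicate 2 alone at 57, and neither list had one at 183 (42.4%). Of upstream peaks 115 of 340 (33.8%, interval 28.8 to 39.1) were in both lists, and of downstream peaks 12 of 92 (13.0%, interval 6.93 to 21.7). Signal moves with both properties, since 98 of the 108 highest peaks and 1 of the 108 lowest were in both lists, and the part of signal in the difference between placements was not tested.

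The replicates' ranked lists, which hold peaks before the threshold, gave a signal for both replicates at 422 of the 432 peaks. Its median was 37.9 in replicate 1 and 39.9 in replicate 2. Across these peaks, which share the 2 libraries, log2 signal had a Pearson r of 0.773 and a Spearman rho of 0.553, as a description. On the log2 scale replicate 2 exceeded replicate 1 by 0.10 at the median peak, and this difference had an SD of 0.43 over peaks. The replicates were more than 2-fold apart at 11 peaks, while replicate 2 was the higher at 250.

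**Figure D2:**
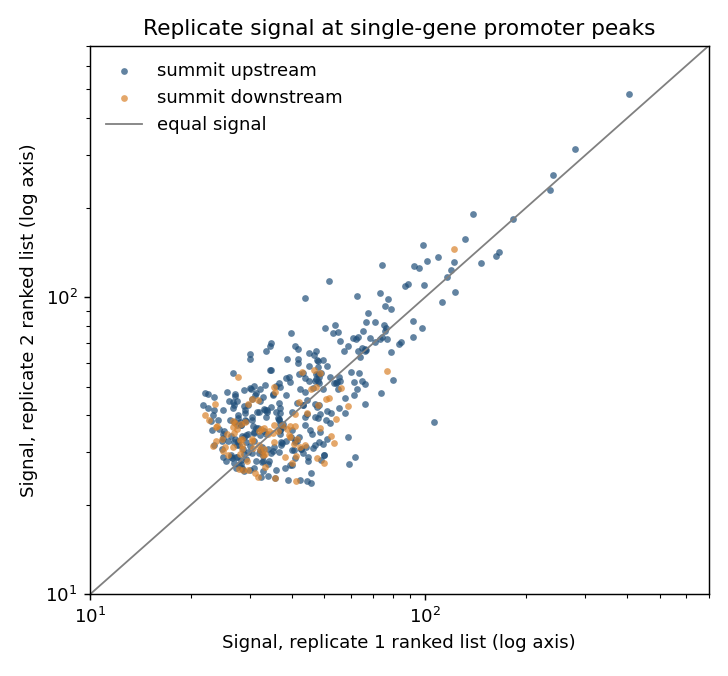
Signal of the 422 peaks found in both ranked lists, replicate 1 (x axis) against replicate 2 (y axis), both on log axes in the peak caller's units. Dark points have the summit upstream, light points downstream, and the line marks equal signal. The points at the upper right include rpl-3, tasp-1, rpl-35, cdc-48.1 and rps-1, and most points lie under a signal of 100.

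The largest imbalance towards replicate 2 was at cpt-2, with a signal of 43.9 in replicate 1 and 99.6 in replicate 2 (log2 ratio 1.18). It was followed by knl-3, a kinetochore gene, with 51.7 and 113 (1.13). Y94H6A.3, sor-1 and cpz-1 had log2 ratios of 1.11, 1.11 and 1.07. Towards replicate 1 the largest was Y17G7B.20, with 106 and 38.1 (-1.47), the peak nearest the limit on distance. C15C6.3, fbxl-1, rrp-8 and Y45G12B.2 had log2 ratios of -1.11, -1.09, -0.94 and -0.88. These are the 5 extremes on each side, and rrp-8 and Y45G12B.2 are within 2-fold.

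The highest peak was at rpl-3, which encodes a protein of the large ribosomal subunit, 285 bp upstream. Its signal was 405 in replicate 1 and 484 in replicate 2 (mean 444 ± 56.0, SD, n = 2). At tasp-1, which encodes a homologue of the protease taspase, the summit was 63 bp upstream and the signals were 280 and 314 (297 ± 24.1). At rpl-35, another gene of the large subunit, it was 436 bp upstream with 241 and 257 (249 ± 11.6). The ranges of these 3 do not overlap, so their order is the same in both replicates.

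At cdc-48.1, which encodes an AAA ATPase that extracts ubiquitin-tagged proteins, the signals were 236 and 230, with the summit 163 bp upstream. The signal of rps-1, a gene of the small ribosomal subunit, was 183 in both replicates, 262 bp upstream. Both values of cdc-48.1 are above those of rps-1 and just under those of rpl-35, so these 5 genes keep their order among themselves in both replicates. In replicate 2, however, cox-5B stood above rps-1, at 190.

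Below these in the conservative list, genes for 2 subunits of cytochrome c oxidase were among the 15 highest. The peak of cox-5B lay 15 bp upstream with 139 and 190, and that of cox-5A 288 bp upstream with 163 and 137. wip-1, which encodes a relative of WASP-interacting protein, an actin regulator, had 166 and 142 at 321 bp upstream. The replicates order these 3 differently, so their ranks among themselves are within the replicate spread.

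The next group also mixed roles. eel-1, a HECT-type ubiquitin ligase gene, had 131 and 157, and mog-4, which encodes a DEAH-box helicase of the spliceosome, had 147 and 130. ints-4, which encodes an Integrator subunit, had 122 and 145 with its summit 31 bp downstream, in the 5' UTR. It was the only downstream summit among the 15 highest.

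rps-24, of the small ribosomal subunit, had 98.7 and 150, the widest gap between replicates of the 15 on the log2 scale (0.60). dnj-13, a DnaJ-type co-chaperone gene, had 122 and 131, with its summit in an intron of another gene. Y22D7AL.10, known by its sequence name only, had a mean of 117 ± 21.6. hsp-3, which encodes an Hsp70 chaperone of the endoplasmic reticulum, had 119 and 123, with its summit 47 bp upstream. All 15 overlapped a peak of both replicates' own lists.

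The lists of ribosomal protein genes had the highest shares. Of the genes under the rule, 9 of 28 of the small subunit (32.1%) and 10 of 45 of the large subunit (22.2%) held a single-gene promoter peak, beside the 2.57% of all genes under the rule. These and the other gene lists were matched by symbol and written with earlier results of these data known. The 20 peaks at 19 ribosomal genes had a median position 286 bp upstream, 18 of them upstream, and 15 at least 200 bp upstream. At the other 412 peaks the median was 186 bp upstream, with 196 at least 200 bp upstream. The median signal was 102 at ribosomal genes and 73.6 at the rest, and 9 of 20 against 118 of 412 were in both replicates' lists.

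The ribosomal peaks spanned a wide range of height. Below rpl-3, rpl-35, rps-1 and rps-24, rps-28 had a signal of 76.3 and 78.9 and rpl-24.2 had 70.6 in both replicates. rpl-6 had 55.1 and 53.9. rps-8, with its summit 215 bp downstream, had 35.3 and 32.6. In the conservative list, whose signal is not the replicate values given here, it was the lowest with an rpl or rps symbol, at 36.4. In both replicates rpl-25.2 was lower, with 25.5 and 28.0. Of the remaining genes of the large subunit list, 16 had a summit in a window that other genes share, 3 had a peak of the class with a same-strand gene upstream and 21 had none. For the small subunit these numbers were 14, 1 and 8.

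Other genes of protein synthesis and folding were also bound. Translation factors held 4 of 32 (12.5%, interval 3.51 to 29.0, which overlaps those of both ribosomal lists), led by iff-2, which encodes eIF5A, with signals of 123 and 104. The aminoacyl-tRNA synthetases held 1 of 21 (4.76%, interval 0.12 to 23.8), dars-1, at 437 bp downstream with 30.5 and 33.3. Chaperones held 6 of 59 (10.2%), among them hsp-1, which encodes the constitutive cytosolic Hsp70, with 48.9 and 55.4 at its higher peak. The proteasome list held 1 of 26 (3.85%, interval 0.0973 to 19.6), rpt-6, an ATPase subunit of the regulatory particle, with 30.9 and 50.1. The intervals of the synthetases and of the proteasome include the 2.57% of all genes under the rule.

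Genes of mitochondria, lysosomes and membrane traffic followed. The respiratory chain and ATP synthase list held 5 of 51 (9.8%), and beside the cox genes these included atp-2, of the ATP synthase, with 26.6 and 36.6 at 233 bp downstream. The mitochondrial ribosome and import list held 2 of 49 (4.08%), mrpl-28 and tomm-20. The interval of this list starts at 0.498% and includes the 2.57% of all genes under the rule. Lysosome, V-ATPase and autophagy genes held 9 of 73 (12.3%), led by epg-7, an autophagy gene, with 62.8 and 65.6, and lgg-2, which encodes an LC3-type protein. Of the 10 peaks of the lysosome, V-ATPase and autophagy list, 1 was in both replicates' lists and 6 were upstream. Membrane traffic genes held 10 of 119 (8.4%), 7 of these peaks in both replicates' lists. Their highest were apb-1 (77.1 and 72.2) and dpy-23 (73.4 and 72.1), which encode subunits of clathrin adaptor complexes and whose ranges overlap each other.

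Genes of nuclear processes were also represented. The splicing list held 6 of 71 (8.45%), with prp-8, a core spliceosome gene, at 46.5 and 63.7 for its higher peak. Transcription machinery, Mediator and Integrator genes held 7 of 69 (10.1%), including rpb-11, an RNA polymerase II subunit, with 41.7 and 60.1. Nuclear pore and transport genes held 4 of 44 (9.09%), led by npp-8 with 75.6 and 76.6. Their interval, 2.53 to 21.7, just includes the 2.57% of all genes under the rule. Ubiquitin genes held 10 of 119 (8.4%), with wwp-1, a HECT-type ligase gene, at 116 and 117 behind cdc-48.1 and eel-1.

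Among chromatin regulators, the list of DREAM and synMuv B genes held 3 of 18 (16.7%). lin-9, which encodes a core DREAM subunit, had 87.3 and 109, efl-1, an E2F factor gene, had 38.5 and 46.8, and lin-36 had 37.2 and 31.7. Histone methylation and remodelling genes held 5 of 72 (6.94%, interval 2.29 to 15.5), led by the SWI/SNF gene swsn-3 with 68.6 and 72.8. The SIN-3 and NuRD deacetylase list held 1 of 21 (4.76%, interval 0.12 to 23.8), mep-1, with 32.0 and 29.8, in neither replicate's own list. Cell cycle and replication genes held 6 of 99 (6.06%, interval 2.26 to 12.7), among them pcn-1, which encodes the replication clamp, with 50.2 and 78.7. Except for the DREAM and synMuv B list, the intervals of the lists in this paragraph include the 2.57% of all genes under the rule.

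The remaining lists, of large families, of genes used in particular tissues and of signalling, ranged from above the background to under it. Histone genes held 3 of 80 (3.75%), his-59, his-16 and his-72, and near-identical histone copies make this count uncertain. Germline and small RNA genes held 4 of 103 (3.88%), led by puf-9, a Pumilio-family gene, with 73.2 and 103. Nuclear receptors held 5 of 236 (2.12%), with nhr-49, a regulator of fat metabolism, at 54.9 and 49.1. Neuronal genes held 4 of 290 (1.38%), muscle genes 1 of 47 (2.13%), collagens and cuticle genes 2 of 264 (0.758%), F-box genes 2 of 340 (0.588%), immune and detoxification genes 1 of 467 (0.214%) and chemoreceptors 1 of 1070 (0.0935%). Sperm genes held 0 of 79, with an exact interval reaching 4.56%. Insulin, TOR and stress signalling genes held 6 of 91 (6.59%, interval 2.46 to 13.8). Of the lists in this paragraph, only the F-box, immune and chemoreceptor lists have intervals wholly under 2.57%, the share of all genes under the rule. The intervals of the rest include it.

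**Figure D3:**
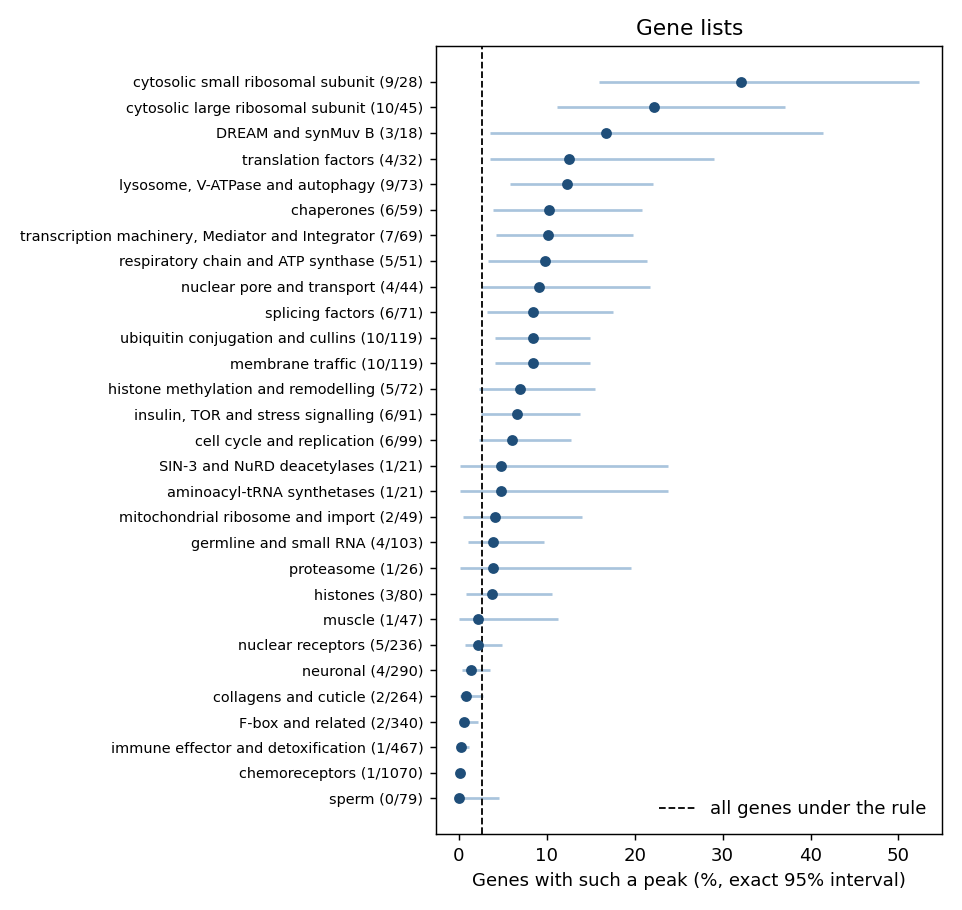
Share of the genes of each of 29 lists that hold a single-gene promoter peak (x axis, percent, with exact 95% intervals as bars), with member genes and genes under the rule in parentheses. The dashed line marks 2.57%, the share of all 16358 genes under the rule. The small ribosomal subunit is at 32.1% and chemoreceptors at 0.0935%.

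The lists cover 126 of the 420 genes, and 294 genes are in none. Of the 420 genes, 279 (66.4%, interval 61.7 to 70.9) had a gene-class symbol such as rpl-3, beside 54.6% of the other genes under the rule. The rest had only a sequence name such as Y22D7AL.10.

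The 420 genes also differed in layout from the other genes under the rule. Those others are not all unbound, since they include genes with a peak of another class. A same-strand gene started within 500 bp of the 3' end at 117 of 420 (27.9%, interval 23.6 to 32.4), beside 15.9% (15.4 to 16.5) of the other 15938 genes under the same rule, which is the layout of a first gene in an operon-like run. Operons themselves were not annotated in the files used. The annotated 5' end was the first base of the coding sequence at 47 genes (11.2%, interval 8.34 to 14.6), against 23.9% of the others. The median gene length was 2513 bp, against 2039 bp. Strand was even, with 48.8% of the 420 genes on the plus strand and 50.3% of the others.

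By chromosome, the share of genes under the rule with such a peak was 4.76% on III, 3.45% on I, 2.47% on IV, 2.40% on X, 2.13% on II and 1.46% on V. The interval for III (3.87 to 5.77) does not meet those for II, IV, V and X, and that for V (1.12 to 1.87) does not meet those for I, III and IV. The share of all genes under the rule was 2.57%. Of the nuclear peaks on each chromosome, single-gene promoter peaks made up between 16.8% on X and 20.5% on III. On V they made up 19.4%, so V differed little from III by this measure. Nuclear peaks of any class numbered 478 on III and 319 on V. The median signal of the single-gene promoter peaks varied little, from 72.7 on I to 79.1 on X. Upstream shares were 93.3% on X and 90.2% on II, and between 70.4% on III and 80.6% on V elsewhere.

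A pair of peaks was found at 12 genes. At hsp-1 the summits lay 483 bp upstream (signals 48.9 and 55.4) and 120 bp downstream (52.2 and 34.1), and the replicates disagree on which of the pair is higher. At prp-8 they lay 336 bp upstream (46.5 and 63.7) and 378 bp downstream (24.9 and 30.3), and the upstream one was higher in both replicates. At T02E1.2 the upstream summit, at 491 bp, had 89.1 and 111 and the downstream one, at 90 bp, had 34.2 and 35.5. lgg-2, hrpa-1, rpl-41.2 and enu-3.3 also had 1 summit on each side of the 5' end. At the other 5 genes, kin-29, unc-23, W01D2.3, B0348.10 and T21B10.3, the peaks of a pair overlapped each other and met the same peak of each replicate's ranked list, so they are not separate measurements.

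The DNA at the summits was GC-rich for a worm promoter. Within 100 bp of the summit the median GC share was 45.3%, against 36.8% for windows centred 1000 bp to either side, and the summit window was the higher at 355 of 432 (82.2%). In each replicate's own list the median was 45.8%. It was 33.8% at the matching place, 192 bp upstream, of all genes under the rule. Upstream and downstream summits had 45.8% and 43.3%. All other nuclear peaks together had a median of 44.3% at the summit, close to these peaks. By class it was 46.3% over small RNA genes, 44.3% far from any protein-coding 5' end, 41.3% with at least 2 genes in the window and 38.8% with a same-strand gene ending upstream.

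**Figure D4:**
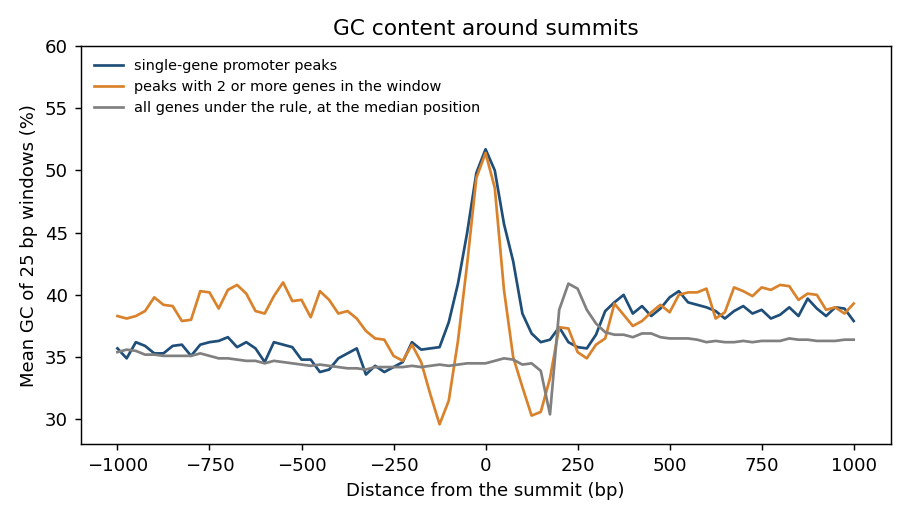
Mean GC share of 25 bp windows (y axis, percent) by distance from the summit (x axis, bp). Single-gene promoter peaks and all genes under the rule are read in the direction of the gene, and peaks with several genes in the window in the direction of the reference. The mean is 51.7% at the summit of single-gene promoter peaks, 51.4% for peaks with at least 2 genes and 34.5% for all genes under the rule.

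The 13 short words searched are spelled here as read, and each was looked for on both strands within 100 bp of the summit. GAGAGA was found at 164 peaks (38.0%), against 28.3% of other nuclear peaks, 14.8% of all genes under the rule and 13.0% of flanking windows. GCGTCTC, the word in capitals in the second group of sequences above, was found at 80 (18.5%), against 10.1%, 3.16% and 2.2%. It lay on the strand of the gene alone at 44 peaks, on the other strand alone at 34 and on both at 2, and at 36 it was within 25 bp of the summit. The GC box GGGCGG was found at 13.4%, against 10.5%, 5.15% and 2.43%.

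Words rich in A and T were rarer at these summits, and at other nuclear peaks, than at promoters in general. The TATA box TATAAA was found at 11.1%, against 24.1% of all genes under the rule. TGATAA, bound by GATA factors, was found at 8.56% against 21.2%, AATATT at 11.3% against 23.6%, TTTAAA at 19.4% against 31.5%, and a block of 7 T at 21.3% against 40.8%. TTTTCAG, which resembles a splice acceptor, was at 12.7% against 17.4%. CACGTG was at 6.71% (interval 4.54 to 9.5), against 3.51% of all genes under the rule and 5.28% of other nuclear peaks. TGACGT was at 9.72% (7.1 to 12.9), against 7.08% and 7.15%, and TTCCCGC at 3.24% (1.78 to 5.38), against 2.42% and 3.31%. Of these words, only TTCCCGC has an interval that includes the share at genes, and that of TGACGT starts just above it. ACTACAA was found at 1.16% against 3.96% of genes. At other nuclear peaks TATAAA was at 13.6%, TGATAA at 13.3%, AATATT at 14.5% and the block of 7 T at 25.7%. TTTAAA (17.3%) and TTTTCAG (9.77%) were rarer there than at the single-gene promoter summits. These shares move with GC content, and the part of GC content was not tested.

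**Figure D5:**
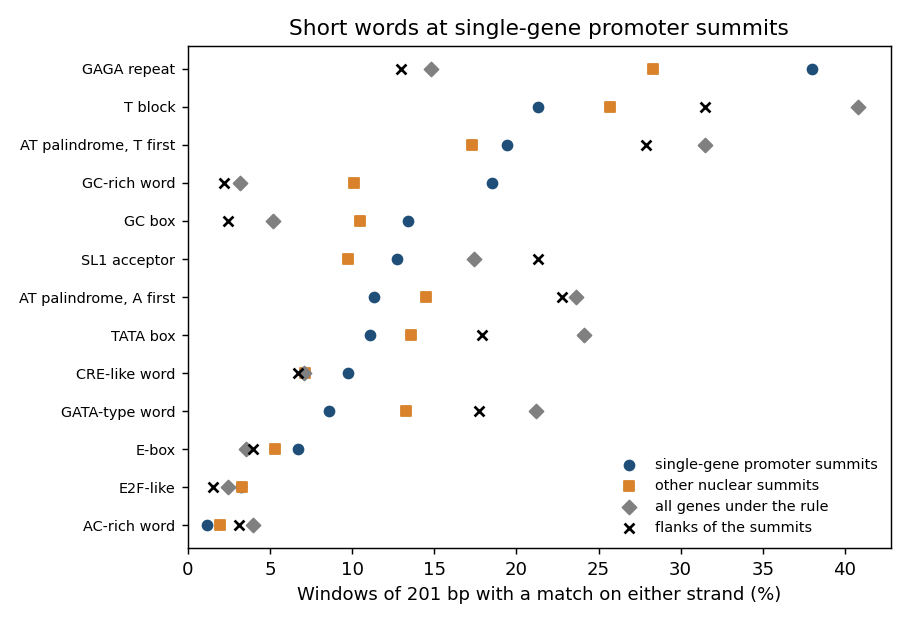
Share of windows reaching 100 bp to either side of a position that hold each of 13 short words on either strand (x axis, percent), for single-gene promoter summits, other nuclear summits, all genes under the rule and flanks. The GC-rich word is GCGTCTC, the AC-rich word ACTACAA, the AT palindromes TTTAAA and AATATT, the SL1 acceptor TTTTCAG, the E-box CACGTG, the CRE-like word TGACGT and the E2F-like word TTCCCGC. The GAGA repeat is at 38.0% of single-gene promoter summits and 14.8% of genes under the rule, while the TATA box is at 11.1% and 24.1%.

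The 3 further GC-rich words, like TACACT, were chosen from these summits and are description only. They came from a count of every word of 6, 7 and 8 letters at the same 432 summits and their flanks, sorted by the difference, in which 8167 words of 7 letters were seen. CTGCGTC was first among these 8167 and was at 17.4% of the peaks against 3.3% of genes under the rule. It overlaps GCGTCTC by its letters, and 62 peaks held both. GCGAGAC was at 10.4% against 6.24% and 1.89%, with 44 upstream and 1 downstream, and ACGCGC was at 20.6% against 12.1% and 4.92%. GCGTCTC itself stood at the third place of the 7-letter words, and it had been listed with earlier results of these data known. Any of the 4 words was present at 191 peaks (44.2%), against 10.2% of genes under the rule. This share was not counted at other nuclear peaks, where each of the words was also commoner than at genes under the rule.

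Most summits lay in unique sequence. Within 50 bp of the summit, every stretch of 36 bp occurred a single time in the nuclear genome at 393 peaks (91.0%). This share was 93.1% for peaks with at least 2 genes in the window and 27.3% for peaks over a small RNA gene, which bring all other nuclear peaks together to 71.5%. At 17 peaks under 50% of the stretches were unique, where short reads also match other places. The highest of these were mog-4 (45.5% unique), F44E7.4 (3.03%) and F13H8.2 (45.5%). Also among the 17 were vps-39 (25.8%) and C09E7.7 (42.4%), both named above. The signals given for mog-4 and vps-39 carry that limit. The share of bases masked as repeats within 100 bp averaged 24.1%, close to the 24.2% of other nuclear peaks, against 31.4% in the flanks and 35.6% at all genes under the rule.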

How the data were processed

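The authors deposited peak lists on ce11: a ranked and a thresholded list per replicate, and lists for the whole series, per the deposited notes. The signal per peak is the authors' deposited value. Each summit is the deposited start plus offset. The aligner and peak caller were not given in the sources used here, nor was the scaling between lists. SDs and ratios of signal may include scale. Depth is unknown. Intervals are exact binomial (95%) and cover counting error only, and neighbouring genes and peaks are not independent.

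Genes came from Ensembl release 115 and sequence from RefSeq WBcel235 (none of the first chromosome is shown; the printed peaks are the highest elsewhere). Of 24287 annotated start codons, 24253 (99.9%) read ATG there. Work was done in Python 3.11.15 with pandas 2.3.3, numpy 2.4.6 and scipy 1.17.1. The placement rule was tested on simulated peaks. With 1 group of 2 replicates no test over samples exists. Labels number the biological replicates, but an SD over 2 is a rough estimate.

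Members, gene lists and 13 words were chosen with earlier results of these data known, and 4 further words after the sequences were seen. Genes were named by rule: the 15 highest, up to 4 per list, the 5 largest and smallest replicate ratios, the 5 farthest downstream, the 3 on either side of the limit and up to 10 with 2 peaks. Others, such as those named for unique sequence, low signal or the shared run, were chosen after their values were seen. Alternatives were another peak list, other windows, signal, position, annotation, overlap and leaving out each replicate.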

Additional observations from a re-analysis of the deposited data

How the results depend on the processing

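The lists of replicate 2 alone and replicate 1 alone gave 206 to 216 single-gene promoter peaks, an upstream share of 85.2% to 88.3%, a median position of -226.5 to -210.5 bp and a median signal of 49.7 to 54.0. Only peaks at or above the nuclear median signal gave 202 peaks, 87.6% upstream, a median of -222 bp, 61.4% in both replicates' lists and a median signal of 105, which that choice raises by construction. A 250 bp window gave a median of -119 bp and 34.7% in both lists. A 1000 bp window gave 74.5% upstream and -245 bp. The series' other list gave -205 bp, and a 1000 bp limit on the upstream gene -172 bp. GC within 50 bp of the summit was 50.5%. In every alternative most summits were upstream. The counts were 329 peaks at 250 bp, 509 at 1000 bp and 489 with the 5' ends of all transcripts. No paired analysis was possible because there is 1 group. The unknown depth limits what a missing peak shows.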
